A study of Mus musculus with 15 samples.

Results

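Co-stimulatory and checkpoint molecules set how strongly a T cell answers the antigen that a macrophage shows it. The 9 genes described here were chosen by name: Cd80, Cd86, Icosl, Tnfsf9, Cd40, Cd83, Cd274, Pdcd1lg2 and Havcr2. They are 9 of the 25639 gene symbols in the count table, and all 9 had enough counts to be tested. Of these, Cd40 and Havcr2 encode receptors on the macrophage rather than ligands, so the group is one of surface molecules at the contact with T cells.

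The cells were RAW264.7, a transformed mouse line with macrophage properties that the labels call wild type, and RNA sequencing gave 15 libraries in 5 groups of 3. LCCL was given at 10 µg for 24 h, at 1 µg for 24 h, at 10 µg for 6 h or at 1 µg for 6 h, and the last group was untreated. The series title presents LCCL as the core motif of a candidate peptide drug and speaks of M1, or classically activated, macrophages. The labels give each dose without a volume, list no vehicle-treated cells, do not say when untreated cells were harvested and name 1 batch for all libraries. They do not say that the 3 libraries of a group came from separate cultures, so the p-values reflect library-to-library spread that may be technical.

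A T cell needs a second signal beside its antigen receptor. CD80 and CD86, the products of Cd80 and Cd86, give that signal through CD28 on the T cell, and they also bind CTLA-4, which restrains it. PD-L1 and PD-L2, encoded by Cd274 and Pdcd1lg2, act through PD-1 to restrain the T cell. Macrophages are known to raise several of these molecules when they meet bacterial products or interferon, with NF-κB and AP-1 among the known regulators.

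In the mouse genome Cd80 and Cd86 lie on chromosome 16 and the PD-1 ligand genes Cd274 and Pdcd1lg2 lie on chromosome 19. Cd40 lies on chromosome 2, Icosl on 10, Havcr2 on 11, Cd83 on 13 and Tnfsf9 on 17. Promoter sequence was at hand for 5 of the 9 genes: Cd80, Cd274, Pdcd1lg2, Icosl and Havcr2. Each window runs from 250 bases before to 50 bases after the RefSeq gene start in build GRCm38.p6. The 4 shown are from 3 genes that were higher at 24 h, including the neighbouring PD-1 ligand genes, and from Havcr2, which was lower. Capitals mark a match to a searched motif; all 4 sequences are from the plus strand, at chr16:38458683-38458982, chr19:29367188-29367487, chr19:29410669-29410968 and chr11:46454681-46454980 in the order shown.
Cd80: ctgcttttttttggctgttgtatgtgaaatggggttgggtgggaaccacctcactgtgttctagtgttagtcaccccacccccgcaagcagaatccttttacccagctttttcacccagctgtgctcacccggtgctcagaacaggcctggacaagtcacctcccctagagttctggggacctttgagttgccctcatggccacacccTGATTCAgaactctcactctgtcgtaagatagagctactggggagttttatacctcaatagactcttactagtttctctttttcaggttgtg
Cd274: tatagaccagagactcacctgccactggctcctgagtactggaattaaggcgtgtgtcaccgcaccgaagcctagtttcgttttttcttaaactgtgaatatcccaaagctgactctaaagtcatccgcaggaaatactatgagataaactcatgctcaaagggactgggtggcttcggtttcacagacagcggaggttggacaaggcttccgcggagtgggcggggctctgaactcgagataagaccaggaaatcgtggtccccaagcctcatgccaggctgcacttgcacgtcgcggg
Pdcd1lg2: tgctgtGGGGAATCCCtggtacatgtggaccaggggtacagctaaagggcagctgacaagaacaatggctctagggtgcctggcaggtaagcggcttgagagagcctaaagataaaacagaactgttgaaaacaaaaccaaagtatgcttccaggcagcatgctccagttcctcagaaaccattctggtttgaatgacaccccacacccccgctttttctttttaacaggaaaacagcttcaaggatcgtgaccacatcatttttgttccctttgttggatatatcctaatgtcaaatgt
Havcr2: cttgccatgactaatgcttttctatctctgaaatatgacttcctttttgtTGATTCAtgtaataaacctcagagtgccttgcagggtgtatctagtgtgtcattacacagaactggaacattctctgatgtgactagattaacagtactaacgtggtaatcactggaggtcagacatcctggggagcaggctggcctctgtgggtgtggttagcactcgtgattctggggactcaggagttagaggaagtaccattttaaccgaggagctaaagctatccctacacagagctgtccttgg

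The motifs searched on both strands were the κB consensus, the interferon response element (GAAA repeated after 2 free bases), the gamma-activated site TTCNNNGAA and the AP-1 site TGANTCA. Here N is any base, so the search left the middle base of the AP-1 site free. Cd80 and Havcr2 each held 1 AP-1 match, first base at -42 in Cd80 and at -200 in Havcr2 from the gene start. Both matches read TGATTCA, with T at the free base. Pdcd1lg2 held a κB match at -244, and Icosl held one at -111 on the minus strand. Cd274 held none of the 4 motifs. Over 32851 promoters of the same length, 8.46% held the κB consensus, 3.44% the interferon element, 8.30% the gamma-activated site and 7.81% the AP-1 site. A match is a description of the letters, and binding was not measured.

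Levels below are CPM, counts relative to the library total after scaling by the TMM method, given for replicates 1, 2 and 3 in that order, and then as mean ± SD (n = 3). Changes are log2 fold changes ± SE from edgeR's quasi-likelihood test, fitted over all 15 libraries and 12401 tested genes, and p-values carry a Benjamini-Hochberg adjustment. "Rose" and "fell" are kept for genes with an adjusted p under 0.05. Library totals ran from 19085148 to 22434642 counts. In RNA from whole cultures, fewer expressing cells and less RNA per cell cannot be told apart.

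One library stood apart from its group. Over all genes, the counts of 1 µg 24 h replicate 1 differed from the other 2 libraries of its group by chi-square values of 13.5 and 15.3 per degree of freedom. The 13 other pairs within groups gave 2.55 to 7.14. Most values of the members that rest on this library are therefore also given without it.

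Macrophage identity was checked with markers. All 9 macrophage markers had counts, Mertk only 20 in all, and their summed level ran from 10915 to 11996 CPM at 10 µg 24 h, 13229 to 15815 CPM at 1 µg 24 h and 14663 to 15300 CPM in untreated cells. Most of that sum was Lyz2, and of the 8 macrophage markers tested 4 were called higher and 4 lower at 10 µg 24 h, with a median log2 fold change of 0.06. Of 5 T-cell markers, Cd3e and Cd3g had no count in any library. The T-cell list summed to 0.671 to 0.857 CPM at 10 µg 24 h, 0.734 to 1.33 CPM at 1 µg 24 h and 0.248 to 0.319 CPM in untreated cells, and all but 4 of its counts were from Cd5. Of 5 B-cell markers, Cd79b and Ms4a1 were among those at 0, and the list summed to 0.575 to 0.728 CPM at 10 µg 24 h, 0.663 to 0.837 CPM at 1 µg 24 h and 0.146 to 0.298 CPM in untreated cells. The single T-cell and B-cell markers with enough counts to test were Cd5 and Cd79a. In untreated cells both list sums lay below the filter's cutoff of 0.486 CPM. Both genes therefore entered the test only through LCCL libraries, and their fitted log2 changes are given as a description. For Cd5 they were 1.40 ± 0.51 at 10 µg 24 h and 1.82 ± 0.48 at 1 µg 24 h. For Cd79a they were 1.45 ± 0.43 and 1.73 ± 0.41. The dendritic-cell marker Ccr7 was at 0, and the 6 dendritic-cell markers summed to 1.36 to 2.17 CPM at 10 µg 24 h, 1.81 to 2.61 CPM at 1 µg 24 h and 0.894 to 1.66 CPM in untreated cells. The 3 with enough counts to test were Zbtb46, Xcr1 and Clec9a, with 244, 126 and 95 counts over all libraries. Xcr1 and Clec9a reached at most 0.613 and 0.591 CPM, little above the filter's cutoff. They may have passed the filter only through libraries where they were high, so no calls are given for this list. The 4 fibroblast markers held at most 2 counts in a group. The part of these marker differences in the results below was not tested.

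At 24 h most of the group was higher than in untreated cells, with Havcr2 the exception. With 10 µg for 24 h, 7 of the 9 genes rose and Havcr2 fell, while Icosl did not pass. With 1 µg for 24 h, 8 rose and Havcr2 fell. Most of the transcriptome also changed at 24 h: 70.3% of tested genes were called at 10 µg, with 35.4% higher and 34.9% lower. At 1 µg the figure was 61.8%, with 30.8% higher and 31% lower. A call in either direction was therefore common at 24 h. The median log2 fold change of the 9 genes was 1.45 at 10 µg and 0.99 at 1 µg, where the median over all tested genes was 0.01 at each dose. One of the 9, Pdcd1lg2, entered the test only through its 24 h libraries, so its call adds nothing to these counts; of the other 8 genes, 6 rose at 10 µg and 7 at 1 µg. The libraries of 8 genes at 10 µg 24 h and 9 at 1 µg 24 h did not overlap with the untreated ones, where 72.2% and 64.7% of all tested genes did not. Without 1 µg 24 h replicate 1, 8 of the 9 genes were called at 1 µg and 24 h. This count, the medians and the counts without overlap all include Pdcd1lg2, which adds nothing to them for the same reason. Time in culture and time on LCCL cannot be told apart here, since the untreated cells carry no harvest time.

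At 6 h the response was smaller and was seen at 10 µg. Cd83, Cd274, Cd40 and Tnfsf9 rose with 10 µg for 6 h and none fell, against 5.95% of all tested genes called and 4.09% called higher. The libraries of 5 genes did not overlap with the untreated ones, where 27.3% of all tested genes did not. With 1 µg for 6 h, edgeR called 0 of the 9 genes, against 0% of all genes. Of the 9, 0 had an unadjusted p under 0.05, with 337 such genes in the whole table, and DESeq2 also called 0 of all genes. The log2 fold changes of the 9 genes in that comparison lay between -0.34 and 0.30, and 0 of the 9 had libraries apart from the untreated ones, where 10.9% of all tested genes did.

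**Figure D1:**
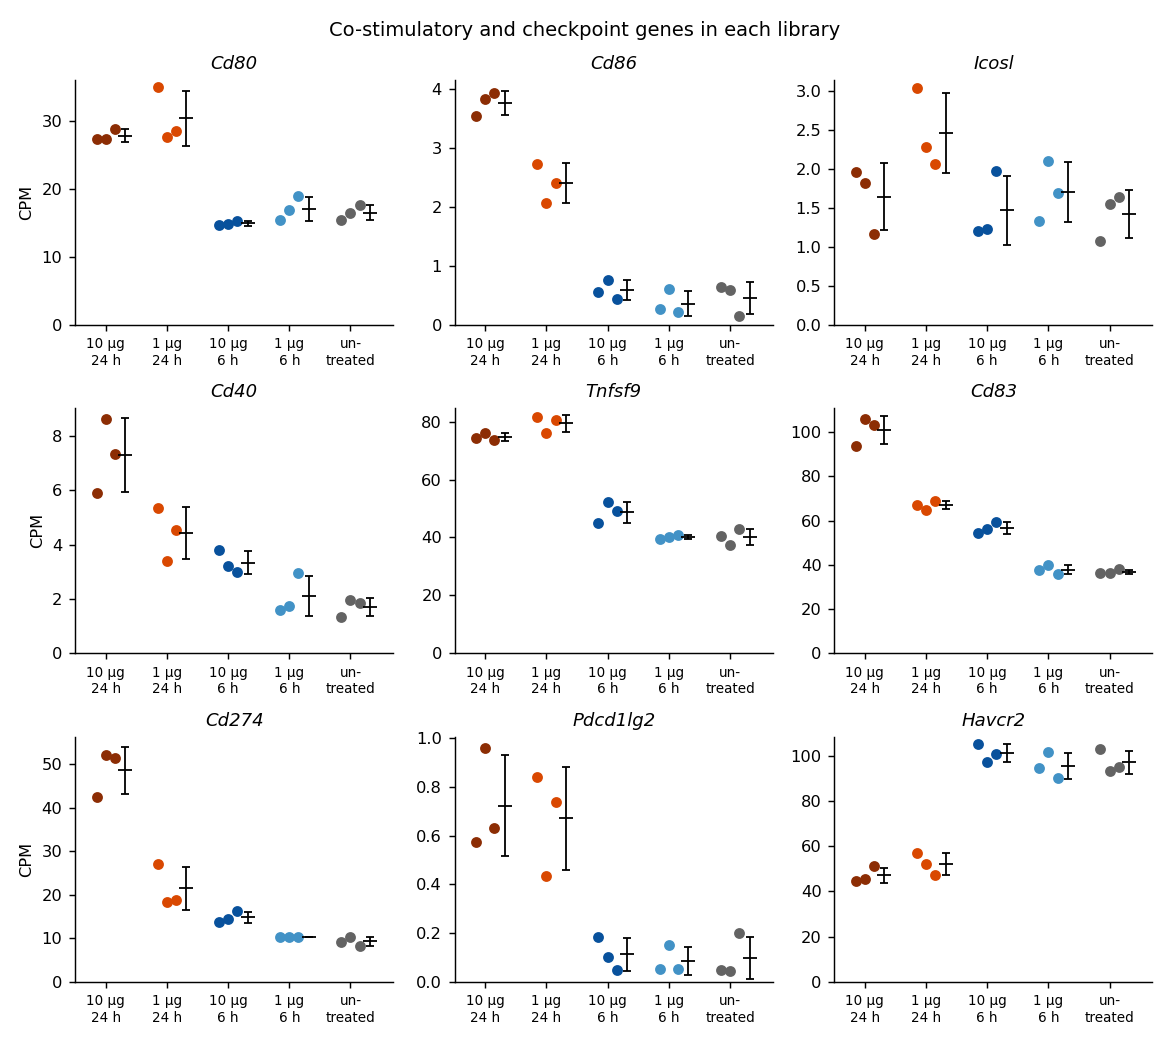
Level of each of the 9 genes in CPM (y axis, 1 panel per gene) in every library of the 5 groups (x axis); points are libraries and the bar beside them is mean ± SD (n = 3). Cd274 reaches 42.4 to 52.1 CPM at 10 µg 24 h against 8.30 to 10.3 CPM in untreated cells, and Havcr2 is the 1 panel where the 24 h groups lie below the rest.

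Cd80 and Cd86 encode the B7 ligands that CD28 and CTLA-4 share. Cd80 had 27.5, 27.3 and 28.9 CPM at 10 µg 24 h, 35.1, 27.6 and 28.6 CPM at 1 µg 24 h, 14.7, 14.8 and 15.4 CPM at 10 µg 6 h, 15.4, 16.9 and 18.99 CPM at 1 µg 6 h, and 15.5, 16.4 and 17.7 CPM in untreated cells. All 6 libraries of the 24 h groups lay above all 9 others. Cd80 rose by 0.75 ± 0.09 (adjusted p = 4.83e-08) at 10 µg 24 h and by 0.88 ± 0.09 (adjusted p = 5.46e-09) at 1 µg 24 h relative to untreated cells, and by 0.77 at 1 µg without replicate 1. At 10 µg 6 h its 3 libraries lay below the 3 untreated ones, and the change of -0.15 ± 0.10 did not pass (adjusted p = 0.46).

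Cd86 had far fewer reads. Its counts were 74, 76 and 81 at 10 µg 24 h, 62, 48 and 49 at 1 µg 24 h, 12, 15 and 9 at 10 µg 6 h, 5, 12 and 4 at 1 µg 6 h, and 13, 13 and 3 in untreated cells. The 24 h groups did not overlap with any other group. Cd86 averaged 3.77 ± 0.20 CPM at 10 µg 24 h and 2.41 ± 0.33 CPM at 1 µg 24 h, against 0.459 ± 0.269 CPM in untreated cells. It rose by 3.01 ± 0.33 (adjusted p = 9.72e-09) at 10 µg and by 2.36 ± 0.34 (adjusted p = 1.57e-06) at 1 µg, or 2.26 at 1 µg without replicate 1. Only 0.71% of tested genes had a larger log2 fold change than Cd86 at 10 µg 24 h. At 6 h it gave 0.33 ± 0.42 at 10 µg and -0.34 ± 0.47 at 1 µg, and neither passed.

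Cd86 was a larger part of the pair at 24 h. It made up 12.0% ± 0.44 of the summed level of Cd80 and Cd86 per kilobase of exon at 10 µg 24 h, 7.41% ± 0.41 at 1 µg 24 h, 3.81% ± 1.10 at 10 µg 6 h, 2.10% ± 1.22 at 1 µg 6 h and 2.78% ± 1.70 in untreated cells (SD, n = 3 each). The shares of the 10 µg 24 h libraries did not overlap with those of the 1 µg 24 h or the untreated libraries, nor did those of 1 µg 24 h with untreated. For these 3 comparisons the two-sided exact permutation p was 0.1, the smallest that 3 libraries against 3 allow (0.25 when adjusted over the 10 share comparisons computed). Cd80 was the more abundant transcript of the pair in every library.

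Icosl, the B7 family ligand of ICOS, was scarce throughout and had the smallest changes of the 9 at 24 h. It had 1.96, 1.82 and 1.17 CPM at 10 µg 24 h, 3.05, 2.29 and 2.07 CPM at 1 µg 24 h, 1.205, 1.23 and 1.98 CPM at 10 µg 6 h, 1.33, 2.10 and 1.69 CPM at 1 µg 6 h, and 1.07, 1.55 and 1.64 CPM in untreated cells. At 10 µg 24 h the libraries overlapped with the untreated ones, and the change was 0.21 ± 0.28 (adjusted p = 0.515, 95% interval -0.37 to 0.80). At 1 µg 24 h they did not overlap, and Icosl rose by 0.80 ± 0.27 (adjusted p = 0.0126). That call was lost without 1 µg 24 h replicate 1 (adjusted p = 0.0757) and without untreated replicate 1 (adjusted p = 0.0721), and over all alternatives the adjusted p ran from 0.00956 to 0.0757.

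Tnfsf9 encodes the ligand of CD137, a TNF receptor family member on activated T cells. Its levels were 74.2, 76.3 and 73.7 CPM at 10 µg 24 h, 81.7, 76.2 and 80.7 CPM at 1 µg 24 h, 45.0, 52.2 and 49.0 CPM at 10 µg 6 h, 39.5, 40.2 and 40.9 CPM at 1 µg 6 h, and 40.4, 37.3 and 42.8 CPM in untreated cells. The 24 h groups were high at both doses and overlapped with each other, and 10 µg 6 h lay between them and the rest. Relative to untreated cells it rose by 0.90 ± 0.06 (adjusted p = 8.62e-13) at 10 µg 24 h, 0.99 ± 0.06 (adjusted p = 5.11e-13) at 1 µg 24 h and 0.28 ± 0.06 (adjusted p = 0.00558) at 10 µg 6 h. At 1 µg 24 h without replicate 1 the change was 0.97. The 6 h call was lost without untreated replicate 2 (adjusted p = 0.0523) or 10 µg 6 h replicate 2 (adjusted p = 0.0589).

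Cd40 encodes the receptor through which helper T cells, by CD40 ligand, activate macrophages. It had 5.89, 8.62 and 7.33 CPM at 10 µg 24 h, 5.34, 3.41 and 4.53 CPM at 1 µg 24 h, 3.80, 3.22 and 2.99 CPM at 10 µg 6 h, 1.60, 1.75 and 2.96 CPM at 1 µg 6 h, and 1.32, 1.96 and 1.84 CPM in untreated cells. The 10 µg groups and the 1 µg 24 h group lay wholly above untreated cells, and the 1 µg 6 h group overlapped with them. Cd40 rose by 2.09 ± 0.22 (adjusted p = 8.39e-09) at 10 µg 24 h, 1.37 ± 0.23 (adjusted p = 1.6e-05) at 1 µg 24 h and 0.96 ± 0.24 (adjusted p = 0.0151) at 10 µg 6 h. Without 1 µg 24 h replicate 1 the change at 1 µg 24 h was 1.21. The 10 µg 6 h call was lost without untreated replicate 1 (adjusted p = 0.0992) or 10 µg 6 h replicate 1 (adjusted p = 0.0826). Over all alternatives its adjusted p ran from 0.00222 to 0.0992.

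Cd83, a surface marker of mature dendritic cells that macrophages also make, rose in 3 of the 4 LCCL groups. It had 94.0, 105.8 and 103.4 CPM at 10 µg 24 h, 67.3, 64.9 and 68.8 CPM at 1 µg 24 h, 54.3, 56.5 and 59.5 CPM at 10 µg 6 h, 37.8, 39.9 and 35.8 CPM at 1 µg 6 h, and 36.5, 36.4 and 38.0 CPM in untreated cells. The 10 µg 24 h, 1 µg 24 h and 10 µg 6 h groups were each separate from every other group, and the 1 µg 6 h group overlapped with untreated cells. Cd83 rose by 1.45 ± 0.06 (adjusted p = 5.91e-17) at 10 µg 24 h, 0.86 ± 0.06 (adjusted p = 4.82e-12) at 1 µg 24 h and 0.62 ± 0.06 (adjusted p = 2.79e-07) at 10 µg 6 h. The change at 1 µg 24 h was also 0.86 without replicate 1.

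Cd274 encodes PD-L1, the main PD-1 ligand on macrophages. Its levels were 42.4, 52.1 and 51.3 CPM at 10 µg 24 h, 27.1, 18.4 and 18.9 CPM at 1 µg 24 h, 13.8, 14.3 and 16.3 CPM at 10 µg 6 h, 10.3, 10.4 and 10.2 CPM at 1 µg 6 h, and 9.17, 10.3 and 8.30 CPM in untreated cells. The 10 µg 24 h libraries lay above all others, followed by 1 µg 24 h and 10 µg 6 h, with no overlap among these 3 groups. Cd274 rose by 2.39 ± 0.13 (adjusted p = 1.41e-11) at 10 µg 24 h, 1.21 ± 0.14 (adjusted p = 5.49e-07) at 1 µg 24 h and 0.67 ± 0.14 (adjusted p = 0.00813) at 10 µg 6 h. Replicate 1 was the high library at 1 µg 24 h, and without it the change there was 1.00. At 10 µg 24 h, 1.53% of tested genes had a larger log2 fold change.

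Pdcd1lg2, which encodes PD-L2, was at the edge of detection. Its counts were 12, 19 and 13 at 10 µg 24 h, 19, 10 and 15 at 1 µg 24 h, 4, 2 and 1 at 10 µg 6 h, 1, 3 and 1 at 1 µg 6 h, and 1, 1 and 4 in untreated cells. Both 24 h groups summed to 44 counts, against 6 in untreated cells, and neither overlapped with any 6 h or untreated library. The fitted log2 changes were 2.83 ± 0.58 at 10 µg 24 h and 2.72 ± 0.58 at 1 µg 24 h, and 2.52 at 1 µg without replicate 1. They are given as a description with no p, since the filter on low counts kept this gene only through its 24 h libraries. PD-L2 transcripts made up 2.65% ± 0.56 of the summed level of Pdcd1lg2 and Cd274 per kilobase at 10 µg 24 h and 5.44% ± 1.30 at 1 µg 24 h, against 2.01% ± 1.93 in untreated cells. The libraries of the 2 doses did not overlap, and those of either dose overlapped with the untreated ones. Its level averaged 0.721 ± 0.207 CPM at 10 µg 24 h and 0.670 ± 0.212 CPM at 1 µg 24 h, against 0.0977 ± 0.0874 CPM in untreated cells.

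Havcr2, which encodes the inhibitory receptor TIM-3, went the other way. It had 44.5, 45.6 and 51.0 CPM at 10 µg 24 h, 57.0, 52.0 and 47.3 CPM at 1 µg 24 h, 105.4, 97.4 and 101.1 CPM at 10 µg 6 h, 94.7, 101.9 and 90.2 CPM at 1 µg 6 h, and 102.9, 93.5 and 94.9 CPM in untreated cells. The highest 24 h library, at 57.0 CPM, lay below the lowest of the other 9 libraries, at 90.2 CPM, and the 6 h groups overlapped with untreated cells. Havcr2 fell, with a log2 fold change of -1.04 ± 0.07 (adjusted p = 5.78e-13) at 10 µg 24 h and -0.90 ± 0.07 (adjusted p = 2.35e-11) at 1 µg 24 h. At 6 h the change was 0.06 ± 0.06 at 10 µg and -0.02 ± 0.06 at 1 µg. Without replicate 1 the change at 1 µg 24 h was -0.97. At 1 µg 24 h, 97.6% of tested genes had a larger log2 fold change than Havcr2.

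**Figure D2:**
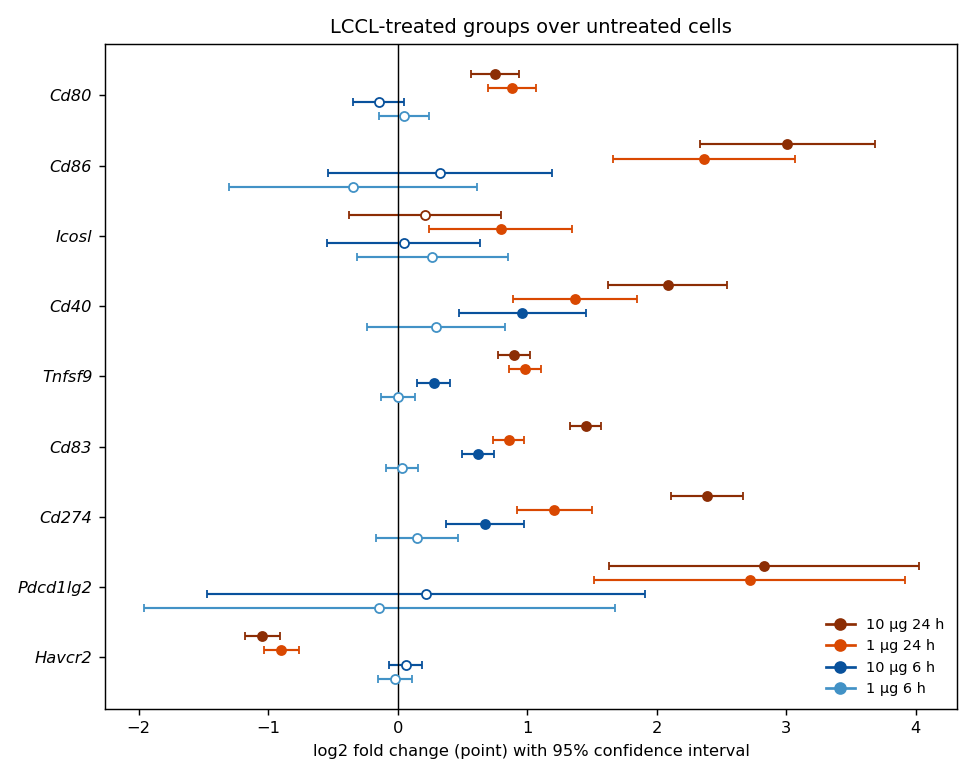
Log2 fold change against untreated cells (x axis) of each gene (rows) in the 4 LCCL groups; bars are 95% intervals, filled points have an adjusted p under 0.05 and open points do not. All 9 intervals at 1 µg 6 h include 0, while at 10 µg 24 h all but that of Icosl exclude it. The Pdcd1lg2 points at 24 h are a description only, since the filter kept this gene only through its 24 h libraries.

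The doses were compared within each time. At 24 h, 3 of the 9 genes were higher with 10 µg than with 1 µg and none was lower, where 35.3% of all tested genes were called and 16% were called higher. Cd274 differed most, at 48.6 ± 5.4 CPM with 10 µg and 21.4 ± 4.9 CPM with 1 µg (1.18 ± 0.12, adjusted p = 5.06e-07), or 1.38 without 1 µg 24 h replicate 1. Cd83 differed by 0.59 ± 0.06 (adjusted p = 5.83e-09) and Cd40 by 0.72 ± 0.20 (adjusted p = 0.00587), or 0.60 and 0.88 without 1 µg 24 h replicate 1. The Cd40 call was lost without 1 µg 24 h replicate 2 (adjusted p = 0.0511) or 10 µg 24 h replicate 2 (adjusted p = 0.0528).

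Other genes showed no dose difference that passed at 24 h. Tnfsf9 differed by -0.09 ± 0.06 (95% interval -0.21 to 0.03) and Cd80 by -0.13 ± 0.09 (95% interval -0.30 to 0.05). These differences were -0.07 for Tnfsf9 and -0.01 for Cd80 without 1 µg 24 h replicate 1. For Pdcd1lg2 the difference was 0.11 ± 0.40, with a wide 95% interval of -0.72 to 0.94, and 0.31 without 1 µg 24 h replicate 1. Cd86 had higher libraries throughout with 10 µg (0.65 ± 0.26, adjusted p = 0.0548), and Icosl had lower ones (-0.58 ± 0.26, adjusted p = 0.0898). Leaving out 1 µg 24 h replicate 1 gave 0.75 (adjusted p = 0.0517) for Cd86 and -0.40 (adjusted p = 0.321) for Icosl. Cd86 passed when the 2 groups were fitted alone (adjusted p = 0.0236), with a range of 0.0236 to 0.185 over all alternatives. Havcr2 differed by -0.15 ± 0.07 (adjusted p = 0.1), and its value was -0.08 (adjusted p = 0.422) without 1 µg 24 h replicate 1, -0.21 (adjusted p = 0.0192) without 1 µg 24 h replicate 3 and -0.21 (adjusted p = 0.0331) without 10 µg 24 h replicate 3.

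At 6 h, 2 of the 9 genes were higher with 10 µg than with 1 µg, where 2.35% of all genes were called and 1.85% were called higher. Cd83 averaged 56.8 ± 2.6 CPM with 10 µg and 37.8 ± 2.0 CPM with 1 µg (0.58 ± 0.06, adjusted p = 1.64e-06). Tnfsf9 averaged 48.7 ± 3.6 CPM with 10 µg and 40.2 ± 0.7 CPM with 1 µg (0.28 ± 0.06, adjusted p = 0.0128). The Tnfsf9 call was lost without 1 µg 6 h replicates 1 or 2 (adjusted p = 0.0857 and 0.0641) and without 10 µg 6 h replicates 2 or 3 (adjusted p = 0.131 and 0.0653). Cd274 had 3 higher libraries with 10 µg but did not pass (0.52 ± 0.14, adjusted p = 0.0672). It did with DESeq2 (adjusted p = 0.0163) and when the 2 groups were fitted alone (adjusted p = 0.000577). Cd40 also had higher libraries throughout (0.67 ± 0.24, adjusted p = 0.165).

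**Figure D3:**
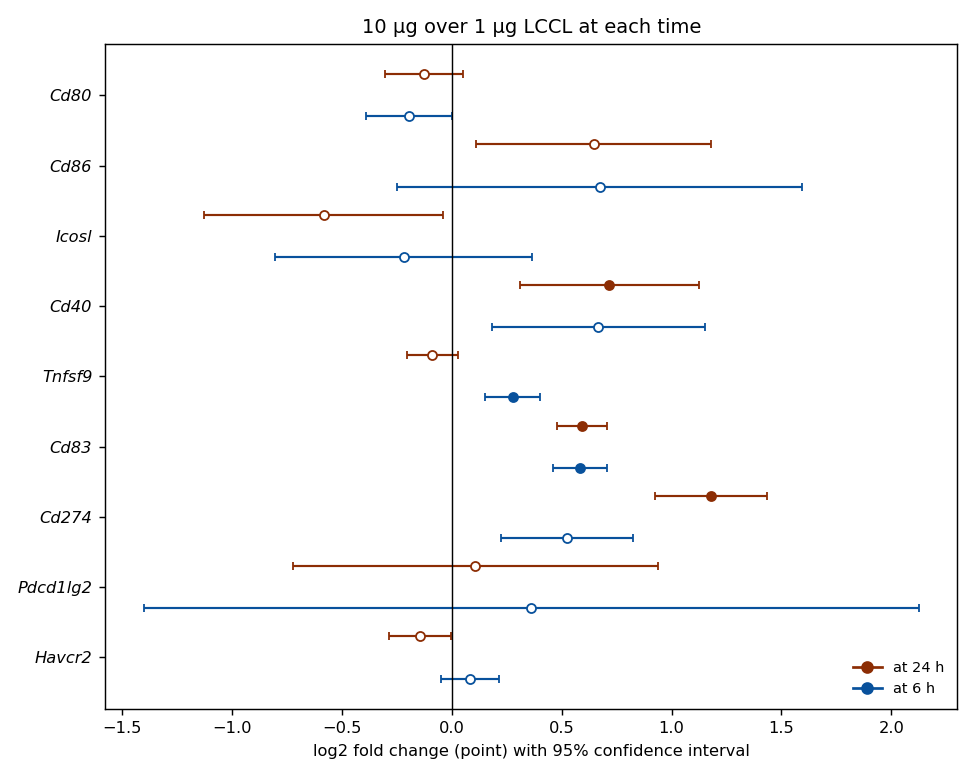
Log2 difference of 10 µg over 1 µg (x axis) for each gene (rows) at 24 h and at 6 h; bars are 95% intervals, filled points have an adjusted p under 0.05 and open points do not. Cd83 lies at 0.59 and 0.58 at the 2 times, whereas Cd274 lies at 1.18 at 24 h and 0.52 at 6 h.

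The times were compared within each dose. Between 24 h and 6 h, 7 of the 9 genes rose and Havcr2 fell at each dose; the 7 include Pdcd1lg2, which passed the filter only through its 24 h libraries, so the count over the others was 6 of 8. At 10 µg 69.2% of all genes were called, 34% higher and 35.2% lower, and at 1 µg 60.7%, 30.3% higher and 30.5% lower. Icosl passed at neither dose, with 0.16 ± 0.28 at 10 µg and 0.53 ± 0.27 (adjusted p = 0.0874) at 1 µg. Cd80 was higher at 24 h than at 6 h by 0.90 ± 0.09 with 10 µg and 0.83 ± 0.09 with 1 µg. Cd83 gave 0.83 ± 0.06 with 10 µg and 0.82 ± 0.06 with 1 µg. Cd86 gave 2.68 ± 0.32 with 10 µg and 2.71 ± 0.36 with 1 µg. Without 1 µg 24 h replicate 1, the 1 µg values were 0.72 for Cd80, 0.82 for Cd83 and 2.60 for Cd86.

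The dose by time interaction, the change between 24 h and 6 h with 10 µg minus that with 1 µg, asked whether the time course differed with dose. It was called for 2 of the 9 genes, against 18.6% of all tested genes. Cd274 gained more with 10 µg: 1.71 ± 0.13 between the times with 10 µg and 1.06 ± 0.14 with 1 µg, a difference of 0.66 ± 0.19 (adjusted p = 0.0198). The Cd274 call was lost without 10 µg 6 h replicate 1 (adjusted p = 0.0546), and without 1 µg 24 h replicate 1 the difference was 0.86 (adjusted p = 3.6e-05). Tnfsf9 gained less with 10 µg, by 0.62 ± 0.06 between the times with 10 µg and 0.98 ± 0.06 with 1 µg, a difference of -0.37 ± 0.08 (adjusted p = 0.00287). The difference was 0.01 ± 0.08 for Cd83 and 0.07 ± 0.13 for Cd80, with 95% intervals of -0.16 to 0.18 and -0.20 to 0.33. Havcr2 gave -0.23 ± 0.09 (adjusted p = 0.0906). Its value was -0.16 (adjusted p = 0.237) without 1 µg 24 h replicate 1, and it passed without 1 µg 24 h replicate 3 (-0.29, adjusted p = 0.0196) or 10 µg 24 h replicate 3 (-0.29, adjusted p = 0.0384). The differences for Tnfsf9, Cd80 and Cd83 were -0.35, 0.18 and 0.01 without 1 µg 24 h replicate 1.

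Levels of different genes were compared as CPM per kilobase of merged exons, with lengths from GENCODE M21. In untreated cells Havcr2 led at 35.7 ± 1.9, followed by Tnfsf9 at 31.1 ± 2.1, Cd83 at 14.4 ± 0.4, Cd80 at 4.47 ± 0.31 and Cd274 at 2.56 ± 0.28 CPM per kilobase. Below these came Cd40 at 0.501 ± 0.1004, Icosl at 0.308 ± 0.066, Cd86 at 0.1253 ± 0.0735 and Pdcd1lg2 at 0.0498 ± 0.0446. Only Cd86 and Pdcd1lg2 had overlapping libraries among neighbours in this order. At 10 µg 24 h the order began with Tnfsf9 at 57.9 ± 1.0 and Cd83 at 39.3 ± 2.4, and Havcr2 came next at 17.3 ± 1.3. Cd274 followed at 13.4 ± 1.5, ahead of Cd80 at 7.54 ± 0.24. Pdcd1lg2 at 0.368 ± 0.106 and Icosl at 0.357 ± 0.092 overlapped at the bottom. Thus Cd274 stood above Cd80 in all libraries at 10 µg 24 h and below it in all untreated libraries.

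At 1 µg 24 h Cd80 at 8.22 ± 1.10 and Cd274 at 5.92 ± 1.35 CPM per kilobase overlapped, as did Cd86 at 0.658 ± 0.091 and Icosl at 0.534 ± 0.111. The top 3 there were Tnfsf9 at 61.6 ± 2.2, Cd83 at 26.1 ± 0.8 and Havcr2 at 19.1 ± 1.8. At 10 µg 6 h Tnfsf9 at 37.8 ± 2.8 and Havcr2 at 37.2 ± 1.5 overlapped, and so did Cd274 at 4.09 ± 0.36 and Cd80 at 4.04 ± 0.10. In the annotation used for lengths, the exons of Cd274 and Tnfsf9 overlap a gene on the other strand over 511 and 192 bases. Whether the counting used strand is not given in the sources used here, so reads from these overlaps cannot be told apart if it did not.

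**Figure D4:**
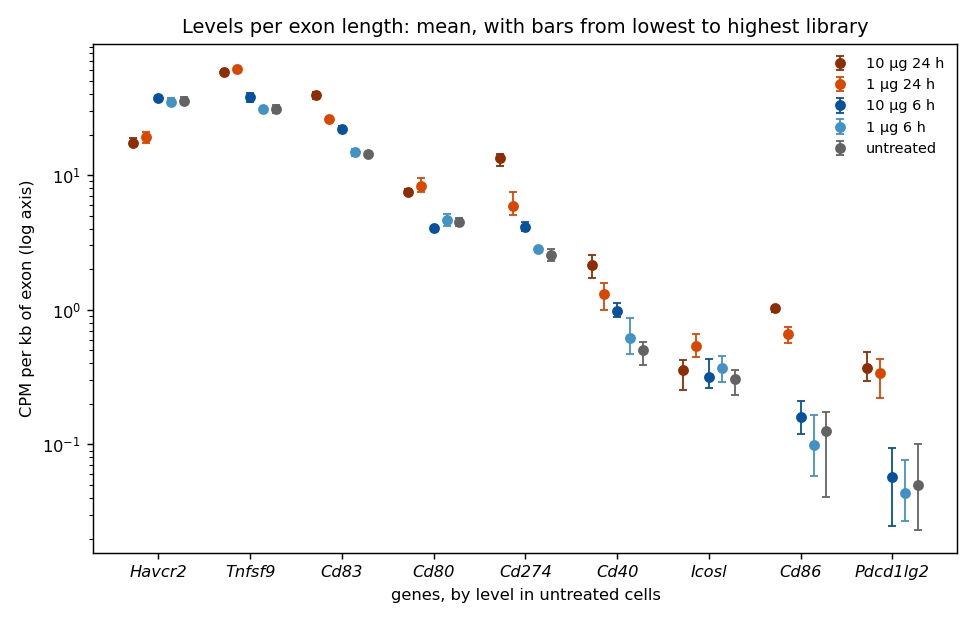
Mean level of each gene in CPM per kilobase of exon (log axis) in the 5 groups; bars run from the lowest to the highest library. Havcr2 and Tnfsf9 are highest in untreated cells at 35.7 and 31.1, and at 10 µg 24 h Tnfsf9 and Cd83 lead at 57.9 and 39.3.

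Receptors of lymphocytes, most of which bind these molecules, were looked at in the same libraries. Of the 8 genes listed, which include Cd40lg as the partner of Cd40, 3 had enough counts to test, Cd28, Ctla4 and Icos. Cd40lg itself had no count in any library. The list also holds Cd226 and Tigit, whose ligands are not among the 9 genes. In these cultures Cd28 had 21.2 ± 1.2 CPM at 10 µg 24 h, 11.3 ± 1.8 CPM at 1 µg 24 h, 3.96 ± 0.64 CPM at 10 µg 6 h, 3.24 ± 0.23 CPM at 1 µg 6 h and 3.07 ± 0.46 CPM in untreated cells. It rose by 2.78 ± 0.14 (adjusted p = 4.91e-15) at 10 µg 24 h and by 1.87 ± 0.14 (adjusted p = 4.65e-11) at 1 µg 24 h. Ctla4 had 13.5 ± 3.7 CPM at 10 µg 24 h and 13.8 ± 2.7 CPM at 1 µg 24 h, against 8.52 ± 0.46 CPM in untreated cells. It rose by 0.66 ± 0.19 (adjusted p = 0.00491) at 10 µg and 0.69 ± 0.19 (adjusted p = 0.00439) at 1 µg. At 1 µg 24 h the changes were 1.73 for Cd28 and 0.68 for Ctla4 without replicate 1. Icos had only 149 counts over the 15 libraries, which ran from 0.145 to 1.15 CPM around the filter's cutoff of 0.486 CPM. It may have passed the filter only through libraries where it was high. Its fitted log2 changes are therefore a description with no p: 0.77 ± 0.47 at 10 µg 24 h and 1.29 ± 0.44 at 1 µg 24 h. Without 1 µg 24 h replicate 1 the latter was 1.04. The CD3 subunit genes Cd3e and Cd3g had no count in these libraries, as given above, and Cd3d had 3 in all. The genes of the T-cell antigen receptor chains themselves were not on the lists.

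**Figure D5:**
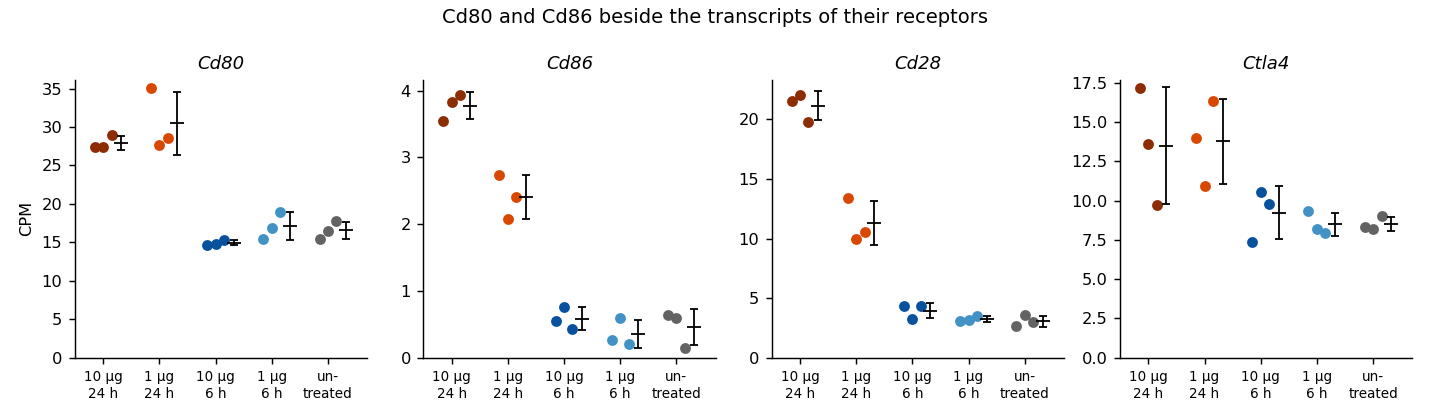
Levels in CPM (y axis) of the ligand genes Cd80 and Cd86 and of the receptor genes Cd28 and Ctla4 in every library of the 5 groups (x axis); points are libraries and the bar beside them is mean ± SD (n = 3). Cd28 reaches 21.2 ± 1.2 CPM at 10 µg 24 h against 3.07 ± 0.46 CPM in untreated cells.

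Relatives of the 9 genes did not share one direction. The list of other B7 and TNF superfamily ligands held 15 genes, of which 13 had a count and 7 were tested. At 10 µg 24 h 3 of the 7 rose and 3 fell, at 1 µg 24 h 3 rose and 1 fell, and at 10 µg 6 h 1 rose and 1 fell; their median changes were -0.12, 0.33 and -0.19, against 0.01, 0.01 and 0.00 over all genes. The shares of all tested genes called in those comparisons were 70.3%, 61.8% and 5.95%. Vsir, the B7 relative VISTA, had 141 ± 8 CPM at 10 µg 24 h and 162 ± 6 CPM at 1 µg 24 h, against 114 ± 5 CPM in untreated cells (0.30 ± 0.05 and 0.51 ± 0.05). Cd276, the B7 relative B7-H3, fell by 0.43 ± 0.09 on the log2 scale at 10 µg 24 h. Tnfsf18, the ligand of the T-cell receptor GITR, rose by 1.22 ± 0.33 at 10 µg 24 h and 1.32 ± 0.33 at 1 µg 24 h. At 1 µg 24 h Vsir gave 0.52 and Tnfsf18 1.29 without replicate 1. Tnfsf10, the death ligand TRAIL, fell by 3.35 ± 0.70 at 10 µg 24 h, where its 4 counts stood against 45 in untreated cells. At 10 µg 6 h the inflammatory cytokine gene Tnf rose by 0.96 ± 0.14 (adjusted p = 0.00204), while at 10 µg 24 h its change was -0.46 ± 0.14 (adjusted p = 0.0136). Vsir was the gene that fell at 10 µg 6 h (-0.19 ± 0.05, adjusted p = 0.0423). That call was lost with the replicate block (adjusted p = 0.0559), without untreated replicates 1 or 3, and without any of the 3 libraries of 10 µg 6 h (adjusted p from 0.0708 to 0.183).

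Regulators of the 9 genes, in the NF-κB, interferon and protein turnover pathways, formed a list of 26, all tested. At 10 µg 6 h 6 rose and 1 fell, at 10 µg 24 h 9 rose and 8 fell, and at 1 µg 24 h 8 rose and 9 fell, with 0 called at 1 µg 6 h. Their median changes in the first 3 of these comparisons were 0.06, 0.08 and -0.03. Of all tested genes 5.95% were called at 10 µg 6 h, 70.3% at 10 µg 24 h and 61.8% at 1 µg 24 h. The genes with the smallest p at 10 µg 6 h were Tnfaip3, the NF-κB brake A20 (0.79 ± 0.07), Birc3, a ubiquitin ligase of TNF receptor signalling (0.47 ± 0.06), and the NF-κB subunit Relb (0.40 ± 0.07). Next was Nfkbia, the inhibitor IκBα (0.26 ± 0.05). Birc3 rose by 0.87 ± 0.06 at 10 µg 24 h and 0.86 ± 0.06 at 1 µg 24 h, and Relb by 0.98 ± 0.07 at 10 µg 24 h and 0.61 ± 0.07 at 1 µg 24 h. Without replicate 1 the changes at 1 µg 24 h were 0.80 for Birc3 and 0.58 for Relb.

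Genes most like each well-expressed member were ranked by Pearson correlation of log2(CPM + 1) over the 15 libraries, among 9837 genes. As the libraries share groups, these values describe the pattern and carry no test. Cd80 was most like Tom1l2 (0.984) and Sidt2 (0.983). Cd83 was most like Irak2, a kinase of Toll-like receptor signalling (0.991), and Sh2d3c (0.981). Cd274 was most like the kinase gene Plk2 (0.991) and Rgl1 (0.988), and Tnfsf9 was most like Slc44a2 (0.992) and the sugar transporter gene Slc2a6 (0.987). Havcr2 was most like Mydgf (0.993) and Sap18 (0.992).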

How the data were processed

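The values were raw read counts, 1 row per gene symbol and 1 column per library, as deposited. Per the labels' protocols, RNA was extracted with TRIzol and column-purified, and libraries were made with a stranded mRNA kit. Per the submitters' processing notes the build was GRCm39; the sources used here name no aligner, counter, annotation or strand setting. The authors deposited the counts without normalization, and 0 columns were left unmatched to a library.

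Counts were analysed with edgeR 4.0.16 in R 4.3.3: TMM scaling, filterByExpr with a minimum count of 10 (12401 of 25639 symbols kept, 8141 had no count), robust quasi-likelihood fits with 1 mean per group over all 15 libraries. SE is the log2 fold change divided by the root of F. The common biological coefficient of variation was 5.68%, with 10 residual degrees of freedom. Intervals cover 95%. Alternatives were RLE scaling, no filter, DESeq2 1.42.0, a replicate block, only the groups compared, and leaving out each library. The pipeline was tested on simulated data.

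The members, lists and tests were chosen with earlier results of these data known. Named beside the members were the 2 genes most like each member of at least 5 CPM, and up to 4 genes per list with the smallest p. Exon lengths came from GENCODE M21 (GRCm38) and promoters from RefSeq; no coordinates were converted between builds. Some genes of the lists are not reported here.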

Additional observations from a re-analysis of the deposited data

Results flagged for a closer look

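For 2 genes the change between 24 h and 6 h differed with the dose by a test of the difference itself, edgeR's interaction term, which was called for 18.6% of all tested genes. Cd274 changed by 1.71 with 10 µg and 1.06 with 1 µg, a difference of 0.66 (adjusted p = 0.0198), which ranged from 0.55 to 0.86 over the alternatives. Tnfsf9 changed by 0.62 with 10 µg and 0.98 with 1 µg, a difference of -0.37 (adjusted p = 0.00287), which ranged from -0.42 to -0.32 over the alternatives. Without 10 µg 6 h replicate 1 the adjusted p for Cd274 was 0.0546.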

How the results depend on the processing

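Each change of a member was recomputed under every alternative that could be fitted, 940 values in all. Of these, 920 kept their direction and side of the threshold, 13 lost the call, 7 gained it and 0 reversed; the calls lost or gained are named beside their values above. Of 2926 values for 28 other genes of the lists, 107 lost a call, 36 gained one and 0 reversed. Pdcd1lg2 was removed by the filter in several fits of only the groups compared.

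The count of all genes called at 10 µg 6 h against untreated cells was 738, or 1487 when only these groups were fitted and 390 to 469 when 1 library was left out. For 10 µg against 1 µg at 6 h it was 291, or 1044 when only these groups were fitted and 111 to 163 when 1 library was left out. At 1 µg 6 h against untreated cells 1 gene was called without the filter. The cause was not tested. Leaving out 1 library gave 1 to 2 members called for 10 µg against 1 µg at 6 h and 1 to 3 for the interaction. The labels do not pair libraries by replicate number. With each group's mean subtracted, same-numbered libraries correlated at -0.081 to 0.096. For 10 of the 15 libraries, the most correlated library of another group carried the same number. What this reflects was not tested. With the number as a replicate block the members called were 4 at 10 µg 6 h, 8 at 10 µg 24 h, 0 at 1 µg 6 h and 9 at 1 µg 24 h, as without it. The 24 h counts include Pdcd1lg2. Low depth limits Pdcd1lg2, Cd86 and Icosl.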

Other observations

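A list of 17 other checkpoint and adhesion molecules of macrophages, all tested, held genes called in both directions at 24 h. Of these, 10 rose and 3 fell at 10 µg 24 h, 11 rose and 1 fell at 1 µg 24 h, 2 rose and 1 fell at 10 µg 6 h, and 0 were called at 1 µg 6 h. Of all tested genes, 35.4% were called higher and 34.9% lower at 10 µg 24 h, 30.8% higher and 31% lower at 1 µg 24 h, and 5.95% were called at 10 µg 6 h. Their median log2 change was 0.77 at 10 µg 24 h and 0.66 at 1 µg 24 h, against 0.01 over all genes at each dose. Cd200r1, an inhibitory receptor of macrophages, had 149.6 ± 10.9 CPM at 10 µg 24 h and 96.9 ± 13.8 CPM at 1 µg 24 h, against 46.0 ± 2.7 CPM in untreated cells. By edgeR its change was 1.70 ± 0.08 (adjusted p = 6.97e-13) at 10 µg and 1.07 ± 0.08 (adjusted p = 1.66e-09) at 1 µg. The inhibitory receptor gene Lilrb4a was the most abundant of those named, at 2996 ± 117 CPM at 10 µg 24 h and 2542 ± 89 CPM at 1 µg 24 h, against 1604 ± 25 CPM in untreated cells. Ceacam1, a ligand of TIM-3, had 36.1 ± 1.9 CPM at 10 µg 24 h against 21.1 ± 0.8 CPM in untreated cells. Hmgb1, a nuclear protein that also binds TIM-3, had 98.4 ± 0.9 CPM at 10 µg 24 h and 114.6 ± 10.3 CPM at 1 µg 24 h, against 173.9 ± 2.5 CPM in untreated cells. The log2 changes at 1 µg 24 h without replicate 1 were 1.17 for Cd200r1, 0.68 for Lilrb4a and -0.55 for Hmgb1.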
